A study of Mus musculus with 8 samples.

Results

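The transcripts described here are the genes of the segment duplicated in Dp1Tyb mice that GENCODE does not class as protein-coding. The rule uses position and gene type and no measured value: members are rows of the table of counts that lie on chromosome 16 between the first base of Lipi and the last base of Zbtb21 (chr16:75540514-97962622, GRCm38, 22.4 Mb) and carry an M21 gene type other than protein-coding. The annotation holds 386 genes in this region, of which 238 are not protein-coding. Of these 238, 41 had a row among the 19493 endogenous genes of the table, beside 87 protein-coding genes of the region. After the filter on low counts, 29 of the 41 non-coding genes and 83 of the 87 coding genes were tested, among 16470 genes in all.

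RNAseq with ERCC spike-ins, synthetic RNAs given in equal amount to equal numbers of cells ahead of extraction, had been carried out on mouse embryonic fibroblasts (MEFs), cells grown from E14.5 embryos. There were 4 wild-type (WT) and 4 Dp1Tyb libraries. Dp1Tyb cells carry Dp(16Lipi-Zbtb21)1TybEmcf and so have 3 copies of each gene in the segment, where WT cells have 2. The labels give C57BL/6J.129P2 as the strain background, and per the study's methods the mice had been backcrossed to C57BL/6JNimr. Per the study's methods MEFs were passaged in medium with serum and were taken off the plates with trypsin. The methods give littermate embryos as their source, with more Dp1Tyb embryos than there are Dp1Tyb libraries here. Whether the cultures of these libraries were littermates is not stated. The labels do not tie each library to one embryo, so p-values measure the spread between these libraries, which may be partly technical.

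Non-coding genes of this kind fall into several classes. Long non-coding RNAs are spliced, capped transcripts without a long open reading frame, and some of them host microRNAs in their introns or exons, which Drosha cuts from the primary transcript as hairpins. Antisense transcripts run across a coding gene on the other strand, divergent transcripts start back to back with a coding gene at a shared promoter, and processed pseudogenes are copies of mRNAs inserted elsewhere in the genome. Mir99ahg, the longest transcription unit among them, is a host of the miR-99a, let-7c and miR-125b hairpins, which repress growth and stem cell genes such as Mtor, Hmga2 and Lin28a. Mir155hg is the host of miR-155, a microRNA known from activated leukocytes.

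The 4 mature microRNAs from the 5′ arms of these hairpins are shown because their host transcripts are the members with most background knowledge. The sequences are from RefSeq (GRCm38.p6), with the seed, bases 2 to 8, in capitals. Hairpin genes of miR-99a and let-7c had a row of counts, and those of miR-125b (Mir125b-2) and miR-155 (Mir155) did not.
mmu-miR-99a-5p: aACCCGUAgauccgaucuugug
mmu-let-7c-5p: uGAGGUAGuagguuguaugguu
mmu-miR-125b-5p: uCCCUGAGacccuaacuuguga
mmu-miR-155-5p: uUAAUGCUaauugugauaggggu
They lie at chr16:77598940-77598961, chr16:77599672-77599693, chr16:77646279-77646300 and chr16:84714143-84714165, all on the plus strand. The seed of miR-99a-5p is shared with miR-99b-5p and miR-100-5p, and that of let-7c-5p with 10 other mature mouse microRNAs, mostly of the let-7 family. No other mature sequence of the table shares the seed of miR-155-5p. Poly(A) libraries of this kind hold long RNA, so the mature microRNAs themselves were not measured.

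Total counts ran from 17698900 to 26471758 per library, with spike-ins at 0.882% to 1.65% of them. Summed fibroblast markers (8 of 8 in the table, among them Col1a1 and Pdgfra) ran from 21690 to 31214 CPM in WT and from 25300.2 to 30928 CPM in Dp1Tyb. Sums for other cell types were far lower, at 139 to 345 CPM for macrophage, 31.6 to 78.7 for endothelial, 32.8 to 52.9 for neural, 2.37 to 24.2 for skeletal muscle, 2.51 to 6.02 CPM for epithelial markers over all 8 libraries; Myod1, Krt5 and Elavl3 had no row. The erythroid gene Alas2 was at 2.13 to 7.15 CPM. All 5 macrophage markers were lower in Dp1Tyb, 4 of them at an unadjusted p under 0.05 with relative and 1 with spike-in scaling, and none was called. All 3 tested muscle markers (Acta1, Myh3 and Actn2) were higher in Dp1Tyb, 2 of them at an unadjusted p under 0.05 with spike-in and 0 with relative scaling, and none was called. WT replicate 1 stood apart: non-coding genes outside the region took 6.56% of its endogenous counts, against 5.37% to 5.52% in the other WT and 5.10% to 5.61% in the Dp1Tyb libraries. The main results are therefore also given without it, a choice made after the data had been seen.

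The fitted levels of most non-coding genes of the region were somewhat above WT in Dp1Tyb and below the ratio of 3 to 2, but no single member passed the test for a difference from WT. Libraries were scaled in both of the ways the study compares, to the spike-ins (absolute normalisation) and to the endogenous genes (relative normalisation). With spike-in scaling, 26 of 29 had a log2 fold change above 0, beside 70.4% of all 16470 genes and 97.6% of the 83 coding genes of the region. The median of the members was 0.25, beside 0.11 over all genes and 0.71 over the coding genes of the region. With relative scaling 21 of 29 were above 0, beside 51.2% of all genes and 96.4% of the coding genes. The median was 0.15, beside 0.01 over all genes and 0.61 over the coding genes, where 3 copies against 2 would give 0.58. Non-coding genes outside the region, 2617 of them, had a median of -0.07 with spike-in scaling and one of -0.19 when scaled to endogenous genes. Of these, 41.7% and 27.7% were above 0. In bulk libraries fewer cells that express a gene and less RNA per cell cannot be told apart.

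No member was called changed. By edgeR's quasi-likelihood test at a Benjamini-Hochberg adjusted p under 0.05 the count was 0 of 29 with spike-in scaling, where 0.0121% of all genes were called, and 0 of 29 with relative scaling, where 0.0182% were. This test also called few coding genes of the region, 0 of 83 with spike-in and 1 of 83 with relative scaling. At an unadjusted p under 0.05, 47 and 58 of these 83 were higher in Dp1Tyb. At an unadjusted p under 0.05, Mx2 and B130034C11Rik were higher in Dp1Tyb with spike-in scaling (2 of 29, beside 0.85% of all genes) and Mx2 and 2810407A14Rik with relative scaling (2 of 29, beside 1.74%). DESeq2 with its own size factors, an alternative added after the data had been seen, called 0 members, gave no adjusted p for 6 of them, and called 37 of the 83 coding genes of the region, beside 0.328% of all genes.

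The libraries of the genotypes overlapped for every one of the 29. With relative scaling the lowest Dp1Tyb library exceeded the highest WT library for 0 members and for 47 of 83 coding genes of the region, beside 1.64% of all genes. With spike-in scaling the counts were 0 of 29 and 16 of 83, beside 0.285%. Members had a median mean count of 41.6 per library and coding genes of the region one of 646. Among the 32 coding genes of the region with a mean count no higher than that of Mir99ahg, a group formed after the data had been seen and with a median mean count of 101, the median log2 fold change was 0.59 with relative scaling, 12 had an unadjusted p under 0.05, and the libraries of 10 did not overlap.

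Against the copy ratio itself, 1 member departed from a fold change of 1.5 by edgeR with relative scaling, the TEC gene Gm31258. Its edgeR p was 0.00779, or 0.0176 adjusted. Of all genes 64.8% departed, since most of the genome is not duplicated. The adjustment ran over all of these genes, so it raises p little and does not bound false calls among the members. At an unadjusted p under 0.05, 5 of 29 lay below the ratio and 0 above it, beside 70.8% of all genes departing and 3 of 83 coding genes of the region below it. These 5 were Gm31258, Gm26626, Gm37063, Gm15965 and Gm15342. With spike-in scaling 0 of 29 departed at either threshold, beside 0.0971% of all genes at the adjusted one. Without WT replicate 1, the median over the same 29 members was 0.47 with spike-in and 0.28 with relative scaling, beside 0.78 and 0.58 over the coding genes of the region, and 1 member was called with spike-in scaling (Mx2), beside 0.0361% of all genes.

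**Figure D1:**
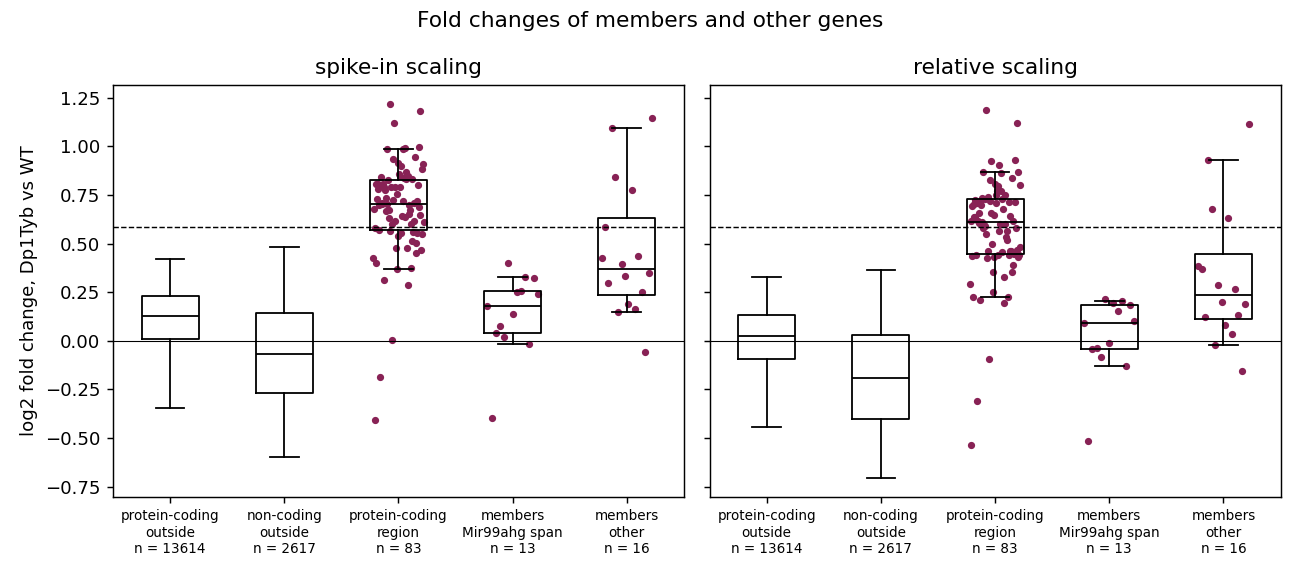
Log2 fold changes, Dp1Tyb against WT, with spike-in scaling (left) and relative scaling (right) for 5 sets of genes; boxes give the quartiles and the median, whiskers the 5th and 95th percentiles, points single genes of the region, the dashed line the ratio of 3 to 2. The members within the Mir99ahg span (n = 13, median 0.09 with relative scaling) and the other members (n = 16, median 0.23) lie below most of the coding genes of the region (n = 83, median 0.61).

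**Figure D2:**
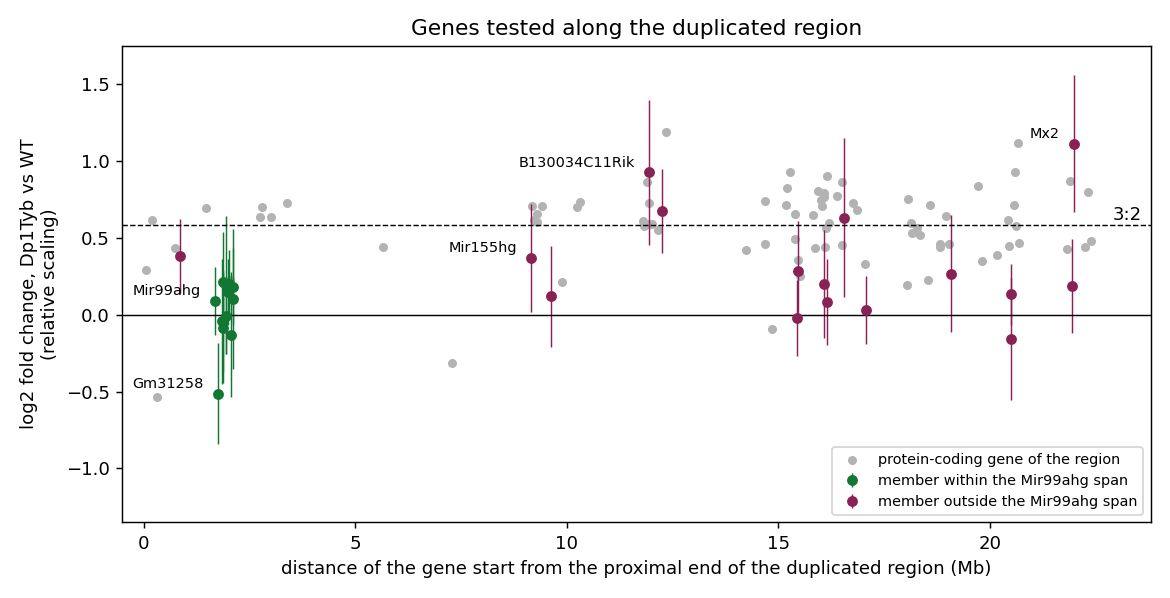
Log2 fold change with relative scaling of each tested gene by the distance of its start from the proximal end of the duplicated region in Mb; grey points are coding genes, green points members within the Mir99ahg span, purple points other members, bars the standard error of members, the dashed line the ratio of 3 to 2. Mir99ahg and the TEC genes in its introns form a cluster near 0 at the proximal side, and Mx2 near the distal end has the highest value of the members (1.11).

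As a sum, the 41 members took 0.0128, 0.00673, 0.00861 and 0.00805% of the endogenous counts in the WT libraries (replicates 1 to 4) and 0.012, 0.00807, 0.00986 and 0.0106% in the Dp1Tyb libraries. WT replicate 1 had the highest share of all 8 libraries, and the groups overlapped. The means were 0.00905% ± 0.00262 (SD, n = 4) in WT and 0.0101% ± 0.00164 (SD, n = 4) in Dp1Tyb, a ratio of 1.12, or 1.30 without WT replicate 1. For the 87 coding genes of the region the ratio was 1.45. Members within the Mir99ahg span had a ratio of 1.00 and those outside it one of 1.26, or 1.23 and 1.38 without WT replicate 1.

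Mir99ahg was the member with the most counts. GENCODE M21 places it on the plus strand at chr16:77236317-77773427, with 14303 exonic bases in 18 blocks. Its introns hold 16 other members: Mir99a and Mirlet7c-1, and all 14 TEC genes of the table, TEC being the GENCODE class of unspliced transcripts that still await experimental checking. None of the 14 TEC genes shares an exonic base with Mir99ahg, and 12 of them lie on its strand, so these rows can hold reads of one primary transcript and are not independent of each other.

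Exonic Mir99ahg stood at 27.6, 13.4, 17.2 and 14.3 CPM in the WT libraries and at 22.5, 17.5, 18.8 and 18.5 CPM in the Dp1Tyb libraries (relative scaling, replicates 1 to 4, as in all such lists). WT replicate 1 was the highest of all 8 libraries, whereas the other WT libraries lay below those of Dp1Tyb. Its log2 fold change, 0.09 ± 0.22 (SE) with relative scaling (edgeR adjusted p = 0.999) and 0.18 ± 0.34 with spike-in scaling, was not called. Against 1.5-fold the edgeR adjusted p with relative scaling was 0.0715, and it was 0.215 without WT replicate 1, whereas Mir99ahg departed from 1.5-fold without WT replicate 2. Without WT replicate 1 the log2 fold change was 0.37 ± 0.15 with relative and 0.61 ± 0.37 with spike-in scaling.

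The coding genes that flank Mir99ahg are Usp25, a deubiquitinase, and Cxadr, a cell adhesion molecule that serves as a virus receptor; this pair was picked after the values had been seen. Usp25 had a log2 fold change of 0.69 ± 0.10 and Cxadr one of 0.64 ± 0.14 with relative scaling. Mir99ahg counts equalled 32.0, 15.7, 18.9 and 14.53% of the Usp25 counts in the WT libraries and 13.5, 12.7, 13.4 and 13.2% in the Dp1Tyb libraries. Every Dp1Tyb library lay below every WT library, and the Dp1Tyb values were within a narrow band. The mean log2 ratio was different by -0.54 in Dp1Tyb (exact permutation p = 0.0286, two-sided, the smallest that 70 assignments of 4 against 4 libraries allow). Adjusted over the 33 ratios of this kind, p was 0.314, and without WT replicate 1 the difference was -0.30. The ratio of Mir99ahg to Cxadr differed by -0.48 and overlapped between the groups (exact permutation p = 0.229).

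Reads from the introns followed the exons. The 12 plus-strand TEC genes summed to 40.6, 19.3, 26.1 and 23.3 CPM in the WT libraries and to 35.4, 20.1, 29.4 and 29.6 CPM in the Dp1Tyb libraries. Per kilobase the sums ran from 0.739 to 1.56 RPKM, near the 0.934 to 1.93 RPKM of the Mir99ahg exons. The ratio of intronic to exonic CPM lay between 1.44 and 1.63 in 7 libraries and at 1.15 in Dp1Tyb replicate 2. Over these 12 genes the ratio of the genotypes' mean shares was 0.995, or 1.22 without WT replicate 1, whereas 431 TEC genes outside the region summed to a ratio of 0.778 and had a median log2 fold change of -0.33 with relative scaling.

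Among the TEC genes, Gm37606 had the highest counts, at 10.6, 5.94, 7.44 and 7.09 CPM in WT and 10.0, 6.23, 9.79 and 9.67 CPM in Dp1Tyb. The low Dp1Tyb library was replicate 2, and the groups overlapped; its log2 fold change was 0.20 ± 0.22. Gm37063 followed, at 4.56, 2.71, 3.74 and 3.25 CPM in WT and 4.18, 2.37, 3.49 and 4.09 CPM in Dp1Tyb, with a log2 fold change of -0.01 ± 0.24 and an edgeR adjusted p against 1.5-fold of 0.0519. Its groups overlapped.

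Gm36963 was at 4.42, 2.42, 3.36 and 3.15 CPM in WT and 3.60, 3.29, 3.69 and 4.26 CPM in Dp1Tyb, with a log2 fold change of 0.15 ± 0.22. C130023A14Rik, which begins 1 base past the 3′ arm of miR-125b, was at 3.44, 1.99, 3.74 and 2.23 CPM in WT and 3.94, 2.88, 3.15 and 2.93 CPM in Dp1Tyb, with one of 0.18 ± 0.25. Gm21816 was at 4.24, 1.44, 1.52 and 1.80 CPM in WT and 3.29, 1.33, 1.87 and 2.19 CPM in Dp1Tyb, with one of -0.04 ± 0.41. In all 3 the groups overlapped, and in Gm21816 replicate 1 of each genotype was the highest of its group. Without WT replicate 1 these log2 fold changes with relative scaling were 0.39 for Gm37606, 0.13 for Gm37063, 0.32 for Gm36963, 0.29 for C130023A14Rik and 0.47 for Gm21816.

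Gm31258, on the minus strand within the proximal part of the span, was the member that departed from 1.5-fold. Its levels were 0.67, 0.721, 0.568 and 1.07 CPM in WT and 0.619, 0.346, 0.443 and 0.69 CPM in Dp1Tyb, from 6 to 22 counts per library. The groups overlapped, with the highest library in WT and the lowest in Dp1Tyb. The log2 fold change was -0.51 ± 0.33 with relative and -0.40 ± 0.55 with spike-in scaling, neither at an unadjusted p under 0.05, and its adjusted edgeR p against 1.5-fold without WT replicate 1 was 0.0262 with relative scaling. As a share of Usp25 it stood at 0.622 to 1.08% in WT and 0.252 to 0.493% in Dp1Tyb, with no overlap (log2 difference -1.20, exact permutation p = 0.0286, 0.314 adjusted). The call against 1.5-fold was lost without WT replicate 4 and without Dp1Tyb replicate 3, where 0 members departed, and the count reached 5 without WT replicate 2.

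The remaining tested TEC genes of the span were Gm38071 (-0.08 ± 0.36), 9430092D12Rik (-0.04 ± 0.33), Gm37311 (-0.13 ± 0.41), Gm37241 (0.19 ± 0.45), 9530003O04Rik (0.10 ± 0.46) and, on the minus strand, 9430053O09Rik (0.22 ± 0.32), each given as log2 fold change with relative scaling and its SE. Without WT replicate 1 they were 0.29 for Gm38071, 0.16 for 9430092D12Rik, 0.29 for Gm37311, 0.28 for Gm37241, 0.55 for 9530003O04Rik and 0.20 for 9430053O09Rik. None had a p under 0.05 against 0 or against 1.5-fold with all libraries. Of the 13 tested members of the span, 9 were highest in WT replicate 1 among all libraries, and 9 were highest in replicate 1 among the Dp1Tyb libraries. Without WT replicate 1 the median of the 13 moved from 0.09 to 0.29 with relative and from 0.18 to 0.55 with spike-in scaling.

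**Figure D3:**
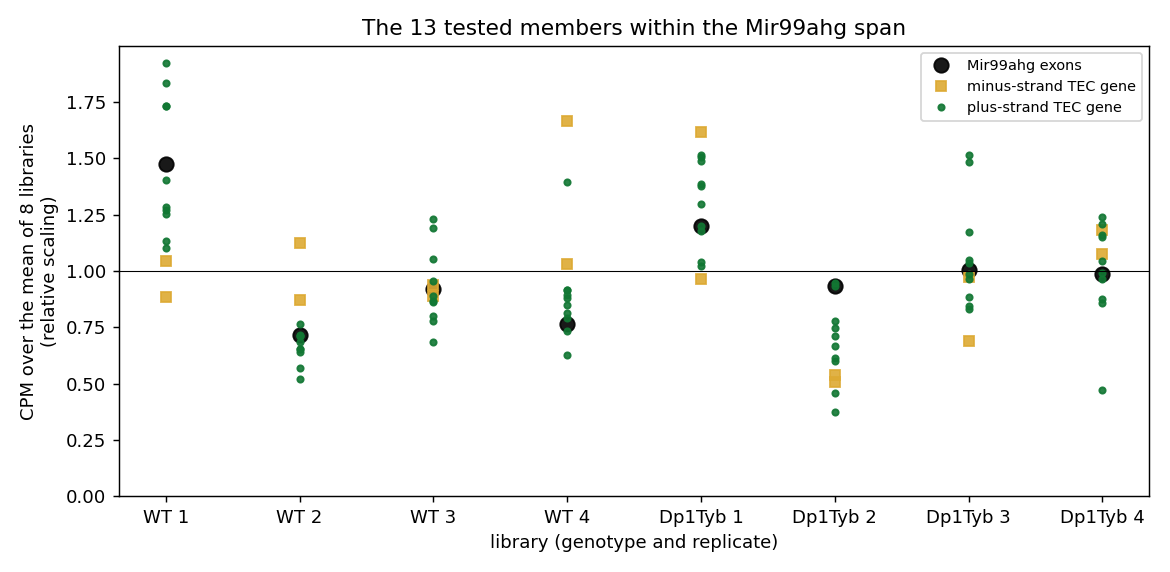
Level of each of the 13 tested members within the Mir99ahg span in the 8 libraries, as CPM (relative scaling) divided by the gene's mean over the libraries; black circles are Mir99ahg exons, green points plus-strand TEC genes, yellow squares minus-strand TEC genes. In WT replicate 1 all plus-strand members lie above 1, and the highest of them, Gm21816, reaches 1.92.

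The hairpin genes Mir99a and Mirlet7c-1 had too few counts for the fit over all genes. Mir99a, 65 bases long, had 8, 4, 6 and 1 counts in WT and 14, 6, 3 and 4 in Dp1Tyb; Mirlet7c-1, 94 bases long, had 8, 5, 1 and 2 counts in WT and 8, 6, 2 and 5 in Dp1Tyb. The genotypes overlapped for both. The differences of mean log2 level were 0.62 and 0.65 (exact permutation p = 0.429 and 0.343).

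Transcripts known as targets of these microRNAs, taken from lists chosen from general knowledge, held no called gene under either scaling. For let-7, 6 of 8 listed genes were tested, including Hmga2 (-0.10 ± 0.24) and Igf2bp1 (-0.01 ± 0.10). With relative scaling 6 of 6 had a negative value, none at a p under 0.05, and with spike-in scaling 4 of 6 were positive. For miR-99a all 3 genes (Mtor, Smarca5 and Igf1r) had log2 fold changes from -0.04 to -0.00 with relative scaling. With spike-in scaling all 3 were positive, with a median of 0.10. For miR-125b, 4 of 5 were tested, with Trp53 at 0.13 ± 0.11 and Bmf at -0.66 ± 0.32, a median of 0.09 and none at a p under 0.05. Lin28a had no row in the table.

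Mir155hg (chr16:84703167-84715245, plus strand), a lincRNA, overlaps no coding gene. It stood at 1.70, 1.74, 3.03 and 3.30 CPM in WT and 3.13, 1.73, 2.76 and 5.01 CPM in Dp1Tyb. The highest library was Dp1Tyb replicate 4, and the groups overlapped across most of their range. The log2 fold change was 0.37 ± 0.35 with relative (edgeR adjusted p = 0.999) and 0.59 ± 0.44 with spike-in scaling, beside 0.71 ± 0.16 for the nearest tested coding gene, Mrpl39, a mitochondrial ribosomal protein. Leukocytes are a known source of this transcript, and the summed macrophage markers ran from 249 to 345 CPM in WT and from 139 to 283 CPM in Dp1Tyb; their part in the level of Mir155hg was not tested.

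Of the known miR-155 targets, 5 of 5 were tested. Bach1, a heme-regulated repressor that is itself duplicated, was at 0.55 ± 0.11 with relative scaling, while Spi1 and Inpp5d, both leukocyte genes, were at -0.70 ± 0.21 and -0.62 ± 0.16, and Socs1 and Cebpb at 0.20 ± 0.26 and -0.28 ± 0.25. Of these, 3 had an unadjusted p under 0.05 with relative scaling and 1, Bach1, with spike-in scaling, and none was called.

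Antisense members lie across coding genes on the other strand, and 7 of them were tested. Their median log2 fold change was 0.12 with relative and 0.25 with spike-in scaling. Whether the counting used the strand of the stranded libraries is not stated, so reads from a gene and its antisense partner may not be told apart. Gm15342, in Brwd1 (a chromatin reader with bromodomains), had the most counts, at 5.09, 4.88, 5.68 and 7.14 CPM in WT and 5.41, 5.02, 7.87 and 6.67 CPM in Dp1Tyb. The groups overlapped, and its log2 fold change was 0.13 ± 0.20, beside 0.45 ± 0.08 for Brwd1.

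Gm15965, in Synj1 (synaptojanin, a lipid phosphatase of endocytosis), was at 5.67, 4.41, 5.21 and 5.58 CPM in WT and 5.03, 3.12, 5.02 and 7.42 CPM in Dp1Tyb. The Dp1Tyb libraries held both the lowest and the highest value. Its log2 fold change was -0.02 ± 0.25 with relative scaling, beside 0.50 ± 0.10 for Synj1. As a share of Synj1 counts it stood at 8.96 to 10.3% in WT and at 6.04, 4.69, 6.69 and 9.69% in Dp1Tyb, where 3 of 4 libraries were below all WT libraries (log2 difference -0.57, exact permutation p = 0.0571, 0.471 adjusted).

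Gm10785 crosses Cryzl1, a quinone oxidoreductase-like gene, and a gene model named Atp5o that was not tested, both on the other strand. Gm10785 starts 128 bases from the start of Donson, a replication fork factor. It was at 2.50, 1.61, 1.66 and 1.99 CPM in WT and 2.75, 1.33, 2.36 and 1.73 CPM in Dp1Tyb, with a log2 fold change of 0.08 ± 0.28. Cryzl1 had one of 0.91 ± 0.15. Gm10785 counts were 7.32 to 11.8% of Cryzl1 counts in WT and 2.74 to 7.02% in Dp1Tyb, without overlap (log2 difference -0.87, exact permutation p = 0.0286, 0.314 adjusted), and the difference was -0.84 without WT replicate 1.

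Of the other antisense members, Gm26626 in Runx1, a transcription factor of blood and bone, had a log2 fold change of 0.03 ± 0.22 beside 0.33 ± 0.28 for Runx1. Gm15964, across Gart (a trifunctional enzyme of purine synthesis) and Dnajc28, was at 0.20 ± 0.35, beside 0.80 ± 0.15 for Gart. 4930404I05Rik, which starts 59 bases from the start of Synj1 and shares 1142 exonic bases with Paxbp1, was at 0.29 ± 0.33. The snoRNA gene Gm27295, in App (the amyloid precursor protein), was at 0.12 ± 0.33, beside 0.71 ± 0.10 for App.

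Among the divergent starts, the promoter is shown for B130034C11Rik, the 1 tested member of this class that overlaps no coding gene. Gm10785 and 4930404I05Rik also start near a coding gene (128 bases from Donson and 59 from Synj1), and their windows are not shown. Their log2 fold changes with relative scaling were 0.08 and 0.29, beside 0.56 for Donson and 0.50 for Synj1. B130034C11Rik (chr16:87495999-87504033, plus strand) starts 126 bases from the start of Cct8, a subunit of the CCT chaperonin, on the other strand. The RefSeq windows from 250 bases before to 50 after the start (GRCm38.p6) are shown for it and for the hosts Mir99ahg and Mir155hg, at chr16:87495823-87496122, chr16:77329078-77329377 and chr16:84712773-84713072, all on the plus strand. Capitals mark a GC box, read as the letters GGGCGG, or a CCAAT box, read as those letters alone. The TATA box, read as the letters TATAAA, was searched as well, and each motif also as its reverse complement. None of the motifs overlaps another in these windows.
B130034C11Rik: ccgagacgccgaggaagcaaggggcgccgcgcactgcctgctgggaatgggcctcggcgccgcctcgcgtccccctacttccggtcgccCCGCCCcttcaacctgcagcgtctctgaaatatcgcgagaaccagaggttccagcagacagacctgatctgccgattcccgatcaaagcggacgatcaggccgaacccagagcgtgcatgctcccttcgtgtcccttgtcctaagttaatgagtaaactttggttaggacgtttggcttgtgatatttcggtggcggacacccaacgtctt
Mir99ahg: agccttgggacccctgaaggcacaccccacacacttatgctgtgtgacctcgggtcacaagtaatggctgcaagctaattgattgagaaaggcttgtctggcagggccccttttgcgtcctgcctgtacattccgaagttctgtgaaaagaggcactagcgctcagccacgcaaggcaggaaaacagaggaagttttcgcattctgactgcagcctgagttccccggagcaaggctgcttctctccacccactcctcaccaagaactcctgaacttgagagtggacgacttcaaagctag
Mir155hg: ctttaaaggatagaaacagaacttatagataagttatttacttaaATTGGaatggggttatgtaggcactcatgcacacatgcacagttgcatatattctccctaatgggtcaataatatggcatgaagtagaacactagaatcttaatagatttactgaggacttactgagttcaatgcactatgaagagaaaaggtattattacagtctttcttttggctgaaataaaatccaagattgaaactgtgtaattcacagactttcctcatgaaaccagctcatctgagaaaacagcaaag
The window of B130034C11Rik holds 28 CG dinucleotides, that of Mir99ahg 8 and that of Mir155hg 0, beside a median of 7 over all 32851 windows of the table. B130034C11Rik has 1 GC box, which 35.7% of all windows hold; Mir155hg has 1 CCAAT box, which 37.4% hold; and Mir99ahg has none of the 3 motifs. A TATA box is in 13.6% of windows and in none of these 3. The RefSeq starts of all 3 lie inside the M21 models, and the windows of Mir99ahg and Mir155hg do not reach the M21 starts. Windows were found for 11 of the 41 members.

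B130034C11Rik was at 1.03, 0.424, 0.474 and 0.340 CPM in WT and 1.66, 0.462, 0.787 and 1.38 CPM in Dp1Tyb, from 7 to 43 counts. WT replicate 1 was above 2 of the Dp1Tyb libraries, and the groups overlapped. The log2 fold change was 1.09 ± 0.53 with spike-in scaling (edgeR adjusted p = 1.00) and 0.93 ± 0.47 with relative scaling (adjusted p = 0.999), and 1.39 with relative scaling without WT replicate 1. Cct8 was at 0.73 ± 0.14, and the ratio of the pair differed by 0.13 between the genotypes (exact permutation p = 0.857).

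Outside the pseudogenes and the Mir99ahg span, Mir155hg and 2810407A14Rik were the tested members that neither overlapped a coding gene nor started beside one. 2810407A14Rik (chr16:87784075-87839293, plus strand) was at 0.447, 0.467, 0.711 and 0.534 CPM in WT and 0.889, 0.692, 0.886 and 0.978 CPM in Dp1Tyb. Of the Dp1Tyb libraries 3 lay above all WT libraries, and replicate 2 lay just below WT replicate 3. Its log2 fold change was 0.68 ± 0.27 with relative scaling (edgeR adjusted p = 0.999) and 0.84 ± 0.54 with spike-in scaling (adjusted p = 1.00), beside 0.55 ± 0.11 for the nearest coding gene, Bach1.

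Besides the pseudogene Gm15971, described with its class, a pair of tested members overlaps a coding gene on the same strand. Gm16310, a sense-intronic transcript in Mrps6 (a mitochondrial ribosomal protein), was at 2.41, 1.02, 1.09 and 1.41 CPM in WT and 4.83, 0.750, 1.62 and 1.84 CPM in Dp1Tyb. Dp1Tyb replicate 1 was far above the rest, and replicate 2 below all WT libraries. Its log2 fold change was 0.63 ± 0.52 with relative scaling, and it was -0.00 with spike-in scaling once Dp1Tyb replicate 1 was left out. The inositol transporter gene Slc5a3, which lies nearby, had its highest level in the same library (1219 CPM, against 263 to 453 CPM in the other Dp1Tyb libraries). The microRNA gene Gm27833, in Brwd1, was at -0.16 ± 0.40.

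Pseudogenes made up 4 of the 29 tested members, 3 processed copies and Mx2, and their median log2 fold change was 0.33 with relative and 0.43 with spike-in scaling. Reads that aligned to several places had been discarded, so the counts of copies close to their parent gene are uncertain. Gm9843 (chr16:76403251-76403652, minus strand) was at 3.80, 6.11, 4.03 and 5.05 CPM in WT and 4.56, 8.65, 6.15 and 5.47 CPM in Dp1Tyb. The groups overlapped, and the highest library was Dp1Tyb replicate 2. Its log2 fold change was 0.38 ± 0.24, beside 0.43 ± 0.14 for Nrip1, a nuclear receptor corepressor. At 13.6 RPKM it had the highest level per length of the members named here.

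Gm15971, inside Dyrk1a (a kinase) on the same strand, was at 1.52, 0.933, 2.98 and 3.25 CPM in WT and 2.94, 1.79, 2.46 and 3.22 CPM in Dp1Tyb. The WT libraries covered a wider range than those of Dp1Tyb, which lay within it. Its log2 fold change was 0.27 ± 0.38, beside 0.46 ± 0.14 for Dyrk1a. Gm9242, inside Fam3b on the other strand, was at 0.19 ± 0.31.

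Mx2 (chr16:97535308-97560900, plus strand) is an interferon-induced GTPase gene that M21 classes as a polymorphic pseudogene, meaning that it is coding in some mouse strains and disrupted in others. It was at 13.7, 3.10, 5.07 and 3.98 CPM in WT and 21.1, 13.3, 10.9 and 10.6 CPM in Dp1Tyb. Replicate 1 was the highest of each genotype, and WT replicate 1 lay above 3 of the Dp1Tyb libraries, whereas the other WT libraries lay below all of them. The log2 fold change was 1.14 ± 0.37 with spike-in scaling (edgeR adjusted p = 1.00) and 1.11 ± 0.44 with relative scaling (adjusted p = 0.999).

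Without WT replicate 1 the log2 fold change of Mx2 was 2.04 ± 0.41 with spike-in scaling (edgeR adjusted p = 0.00314) and 1.80 ± 0.30 with relative scaling (adjusted p = 0.278). With relative scaling Mx2 then departed from 1.5-fold (edgeR adjusted p = 0.00977), as did 57.6% of all genes. Leaving out Dp1Tyb replicate 1 instead lowered the spike-in value of Mx2 to 0.77, the lowest for any single library left out. Its coding paralogue Mx1 lies 72401 bases away and was at 0.87 ± 0.57 with relative scaling, and the ratio of Mx2 to Mx1 differed by 0.14 (exact permutation p = 0.857). The genes are alike in sequence, so reads may be split between them.

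**Figure D4:**
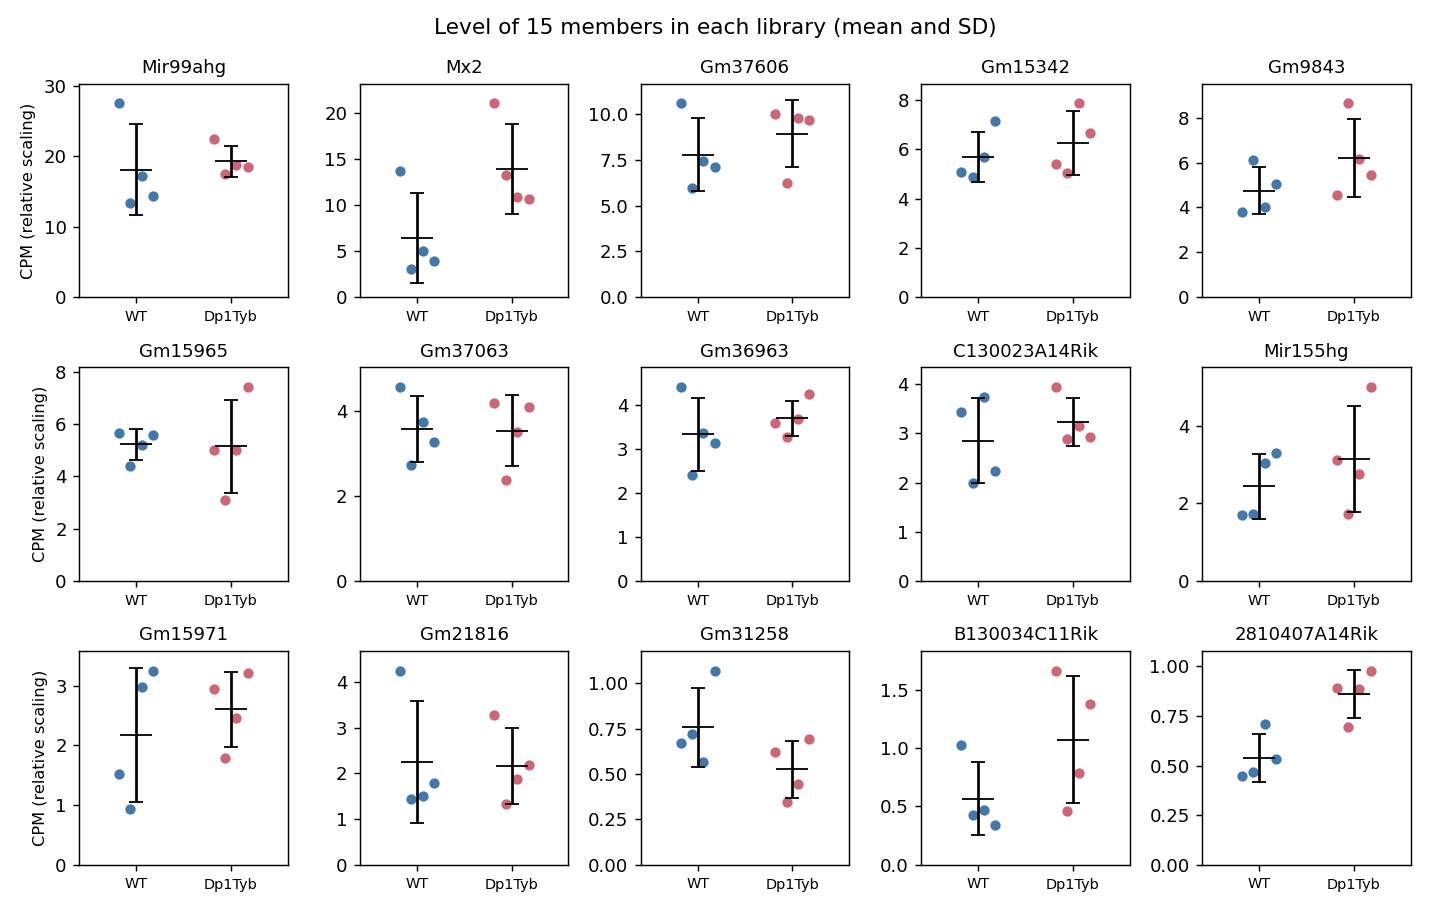
CPM with relative scaling in each library for the 12 tested members with the highest counts and for Gm31258, B130034C11Rik and 2810407A14Rik; points are libraries, lines and bars the mean and SD of 4. The groups overlap in every panel, and in that of 2810407A14Rik 3 Dp1Tyb libraries lie above all WT libraries.

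Setting each member against a coding gene in the same library removes the scaling between libraries. Ratios were taken for 33 pairs of a tested member and a tested coding gene that overlaps it or, with none, the nearest tested one. They were taken, and Usp25 and Cxadr added for Mir99ahg, after the data had been seen. Gm9242, inside Fam3b, was paired with Mx1 as the nearest, and Gm10785 with Cryzl1 alone. The ratio was lower in Dp1Tyb for 30 of 33 pairs, also without WT replicate 1. Of these, 3 had no overlap between the genotypes, namely Mir99ahg to Usp25, Gm31258 to Usp25 and Gm10785 to Cryzl1, and 0 had an adjusted p under 0.05. By the same rule of pairing, 2823 pairs of non-coding genes outside the region were lower in Dp1Tyb in 70.8% of cases with a median difference of -0.18, against -0.29 over the 33 pairs, and in 2.94% of them every Dp1Tyb library lay below every WT library. The pairs are not independent, since 12 share the weakly expressed Gm11146, a coding gene of 15.2 counts per library that shares 21 exonic bases with Mir99ahg. In the fits with relative scaling, 26 of 29 members had a lower log2 fold change than their coding neighbours, with a median difference of -0.24.

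**Figure D5:**
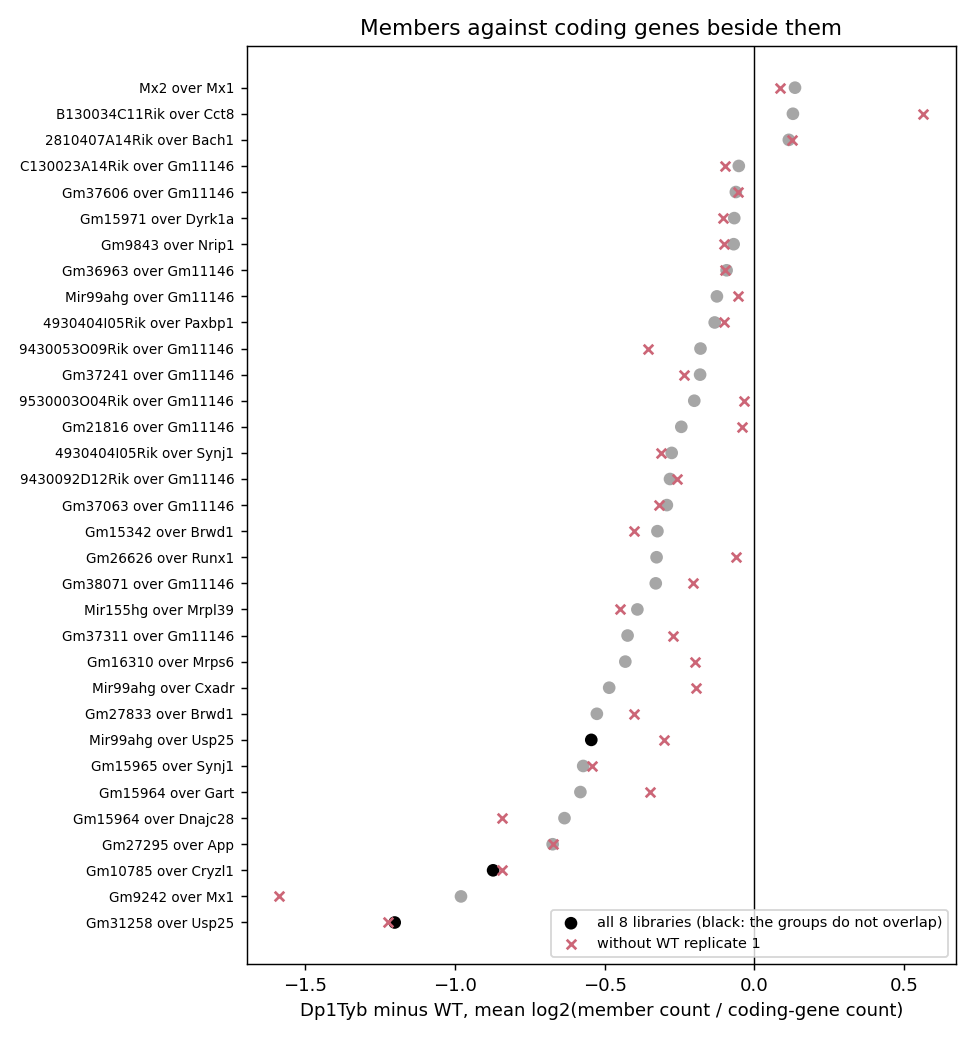
Difference between the genotypes in the mean log2 ratio of member counts to coding gene counts for 33 pairs; circles are all libraries, black where the genotypes do not overlap, and crosses the values without WT replicate 1. Among the circles, all but 3 pairs lie left of 0, from -1.20 for Gm31258 over Usp25 upward. The lowest cross is that of Gm9242 over Mx1, at -1.59.

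Members were also split by whether they overlap another annotated gene. The 4 tested members that overlap no other annotated gene, Gm9843, B130034C11Rik, 2810407A14Rik and Mx2, had a median log2 fold change of 0.80 with relative and 0.97 with spike-in scaling, and the 25 that overlap one had 0.12 and 0.25. For coding genes of the region the medians with relative scaling were 0.70 for 30 without and 0.59 for 53 with an overlap. With 4 members the former is a description only, and it includes all 3 with an unadjusted p under 0.05.

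The 12 members below the filter had 0 to 51 counts per library. By an exact permutation test on log2 levels, 9 of 12 had a higher mean in Dp1Tyb under either scaling, and the smallest p was 0.0286 with spike-in and 0.0857 with relative scaling, both for A930006K02Rik, with 4, 5, 5 and 3 counts in WT and 6, 7, 8 and 4 in Dp1Tyb. Gm22933, a microRNA gene in Synj1, had 5, 1, 5 and 4 counts in WT and 5, 6, 6 and 9 in Dp1Tyb (difference 0.98, exact permutation p = 0.114). The histone pseudogene H3f3a-ps2 had 9, 3, 8 and 6 counts in WT and 4, 6, 3 and 2 in Dp1Tyb (difference -0.59, exact permutation p = 0.314). In Gm37694, within Mir99ahg, replicate 1 held 51 of 69 WT and 34 of 53 Dp1Tyb counts. The others were Gm37466, Mir99a, Mirlet7c-1, Gm2541, Gm17518, 4931406G06Rik, 2310043M15Rik and Gm7976. With relative scaling none of the 12 had a p under 0.05.

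Long non-coding RNAs elsewhere in the genome give the background. Of 17 known by name, 15 were tested and 0 were called, with 4 higher and 11 lower with relative scaling and a median of -0.21; with spike-in scaling 5 were higher and 10 lower. Neat1, the scaffold of paraspeckles, was at -0.67 ± 0.14, Meg3 at -0.40 ± 0.17 and Malat1 at -0.11 ± 0.20. Medians with relative scaling over whole classes outside the region were -0.33 for TEC, -0.14 for lincRNA, -0.22 for antisense and -0.10 for processed pseudogenes, all below the median of 0.15 over the tested members.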

How the data were processed

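Counts per gene had been made by the authors from poly(A)-selected stranded libraries, sequenced as paired-end reads. The submitters' processing notes name Trim Galore, TopHat2 2.0.12, HTSeq, DESeq2 1.6.3 and GRCm38, and per the methods reads with several alignments were discarded. The strand option and annotation release of the counting are not given in the sources used here. The deposited counts hold 19493 endogenous genes and 63 spike-ins, and 19318 IDs matched GENCODE M21, which gave positions and gene types (175 did not).

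Members were picked as a subject, and the lists (cell type markers, microRNA hosts, microRNA targets, known long non-coding RNAs) chosen, with earlier results of these data known. Of 4 listed microRNA hosts, 2 were in the table, Mir99ahg and Mir155hg, and 0 were called. Libraries were scaled by spike-in median of ratios, or by TMM over endogenous genes (relative). Genes passing filterByExpr were fitted by genotype in edgeR 4.0.16 (R 4.3.3) with the quasi-likelihood test, also against a fold change of 1.5, and p-values were adjusted by Benjamini-Hochberg over all 16470 genes. Single ratios and genes below the filter were compared by two-sided exact permutation tests on log2 values (pseudocount 0.5), where 4 against 4 libraries cannot go below 0.0286. Each SE of an edgeR log2 fold change was derived from the test, as its absolute value over the square root of the F statistic. The fitting was tested on simulated data. Alternatives included DESeq2 1.42.0, other scalings and filters, a replicate block and leaving out each library. Every tested member is named, and library values are given for the 12 with the highest counts and for others picked after their values were seen. RPKM used M21 exon lengths. The common biological coefficient of variation in edgeR was 0.351 with spike-in and 0.232 with relative scaling.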

Additional observations from a re-analysis of the deposited data

Results flagged for a closer look

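In 4 of 58 groups of 4 libraries, 1 library stood far from the others by Dixon's test, where chance gives about 1 in 20 groups. Gm21816 was at 4.24 CPM in WT replicate 1 and at 1.44 to 1.80 CPM in the other WT libraries. Gm38071 was at 2.77 CPM in WT replicate 1, against 1.15 to 1.41 CPM, and Gm37311 at 3.93 CPM, against 1.53 to 1.85 CPM. Gm37606 was at 6.23 CPM in Dp1Tyb replicate 2, against 9.67 to 10.0 CPM in the other Dp1Tyb libraries. All 4 are TEC genes on the plus strand within Mir99ahg introns, so their values are not independent of each other.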

How the results depend on the processing

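The median log2 fold change of members kept its direction under every alternative run. Leaving out single libraries, with the filter applied anew, gave 0.0973 to 0.479 with spike-in and 0.0543 to 0.273 with relative scaling. Over members that overlap no other annotated gene the medians were 0.97 and 0.80, and the ratio of summed shares was 1.63. Calls with spike-in scaling went from 0 to 1 under the replicate block (Mx2, log2 fold change 1.40, edgeR adjusted p = 0.00213), where 0.0546% of all genes were called, and ran from 0 to 1 without single libraries (Mx2 without WT replicate 1).

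The count of members departing from 1.5-fold with relative scaling, 1, was least stable. It was 0 over members without overlap and at an adjusted p under 0.01, 2 with no filter, 3 with at least 10 counts in every library, 3 with DESeq2, 3 with DESeq2 and its own size factors (added after the data had been seen), 4 with upper-quartile factors, 12 with the replicate block (Mir99ahg and Mx2 among them), and 0 to 5 without single libraries. With relative scaling the share of all genes that departed was 64.8%, and it was 31.9% at an adjusted p under 0.01, 55.4% with no filter, 71.3% with at least 10 counts in every library, 67.5% with DESeq2, 66.3% with DESeq2 and its own size factors, 69.9% with upper-quartile factors, 78.4% with the replicate block and 47.1 to 62.5% without single libraries. Same-numbered libraries correlated at 0.375, 0.605, -0.030 and 0.393. The labels do not say what the numbers mark, 3 of 4 pairs were above the 0.1 that was asked of every pair, and replicate 3 of neither genotype correlated best with its own number.

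Relative scaling turned the sign of Gm15965 (-0.0205), Gm21816 (-0.0425), 9430092D12Rik (-0.0377), Gm37063 (-0.0109) and Gm38071 (-0.0833), and a pseudocount of 5 that of Gm37466 (-0.0103) and Gm37694 (-0.0473). Without single libraries, spike-in log2 fold changes that changed sign ran from -0.42 to 0.22 for Gm27833, -0.41 to 0.57 for Gm37311, -0.31 to 0.72 for Gm21816, -0.27 to 0.55 for Gm38071, -0.23 to 0.42 for 9430092D12Rik, -0.21 to 0.44 for Gm15965, -0.11 to 0.40 for Gm26626, -0.0721 to 0.59 for Gm37241, -0.0573 to 0.47 for Gm10785, -0.0451 to 0.41 for Gm37063, -0.0144 to 0.63 for 4930404I05Rik and -0.0018 to 1.26 for Gm16310. None of these members was called. Members had a median of 41.6 counts per library and a median SE of 0.328 with relative scaling, beside 101 counts and 0.324 for the 32 coding genes of the region with counts up to those of Mir99ahg.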
